A study of Homo sapiens with 30 samples.

Results

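TET1-only regions are the places where chromatin immunoprecipitation with sequencing (ChIP-seq) called TET1 but none of the other 3 proteins studied. They were chosen by overlap in the peak lists of cells without auxin. Rows of a list that shared a base were joined into 1 region, and a TET1 region counted as TET1-only when it shared no base with a CTCF, MBD3 or TET2 region. This left 965 of 16246 TET1 regions, or 5.94% (Wilson 95% interval 5.59% to 6.31%). Their number and their lack of the other proteins follow from that choice and carry no test.

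The cells were HEK293T, an established human embryonic kidney line, with CTCF edited for auxin-inducible degradation. All groups had been co-transfected with the plasmids for ScFv-miniIAA7-mEGFP and AtAFB2-mCherry, which supply the degradation system. Cells with IAA received this auxin at 0.5 mM for 72 h, and cells without IAA stayed in plain medium. A label also names those without IAA as DMSO. There were 3 samples for each antibody (CTCF, MBD3, TET1 and TET2) and for input in each condition, 30 samples in all. The sources used here do not give the share of cells that carried both plasmids, and no list measures CTCF protein.

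TET1 is a dioxygenase that oxidises 5-methylcytosine, an early step of active DNA demethylation, and it carries a zinc-finger domain of the CXXC type that binds CpG-rich DNA. CTCF, a protein with many zinc fingers, sits at the anchors of chromatin loops and at domain borders. MBD3 is a subunit of the NuRD remodelling and deacetylase complex, and TET2 is a second enzyme of the TET family, which lacks its own CXXC domain.

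The authors pooled the 3 samples of a group before calling peaks, so 8 lists were deposited and none has a replicate error. The TET1 list held 325 regions with IAA, against 16246 without IAA. The CTCF list held 63 regions with IAA and 42925 without, the MBD3 list 50 and 6608, and the TET2 list 3022 and 1326. The number of reads behind the lists is unknown. It sets how many weak peaks are called, so list lengths alone do not compare the conditions. Every p-value given here compares classes of regions within these pooled lists. Regions are positions, many of them close together, and not replicates, so no p-value speaks of the spread between cultures.

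TET1-only regions were weak members of the TET1 list. Their median fold enrichment, the authors' ratio of a peak's signal to background, was 4.16 (quartiles 3.61 and 4.74). For the 14798 TET1 regions at CTCF the median was 7.61 (quartiles 5.88 and 9.95). The 483 TET1 regions away from CTCF that carried MBD3 or TET2 had a median of 4.33 (quartiles 3.64 and 5.21), close to the TET1-only value. A fold of at least 5 was reached by 173 TET1-only regions, or 17.9% (15.6% to 20.5%), against 84.5% of all other TET1 regions. The median −log10 of the q-value was 2.99 in TET1-only regions, 4.14 in TET1 regions away from CTCF with MBD3 or TET2, and 15.4 in TET1 regions at CTCF. Many TET1-only regions lay close to the lower limit of the list, where the lowest −log10 q was 1.30. In all, 251 regions, or 26.0% (23.3% to 28.9%), had a −log10 q under 2, against 1.60% of the other TET1 regions.

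Seen across the whole TET1 list, the TET1-only share was highest among the weakest regions. Of the 1625 TET1 regions in the weakest decile by fold, 492 were TET1-only, or 30.3% (28.1% to 32.6%). The next decile held 303, or 18.6%. These 2 deciles held 51.0% and 31.4% of the class. The decile ending at 7.32-fold held 16, and the strongest, above 12.4-fold, held 0 of 1625, which allows a share of up to 0.185%.

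**Figure D1:**
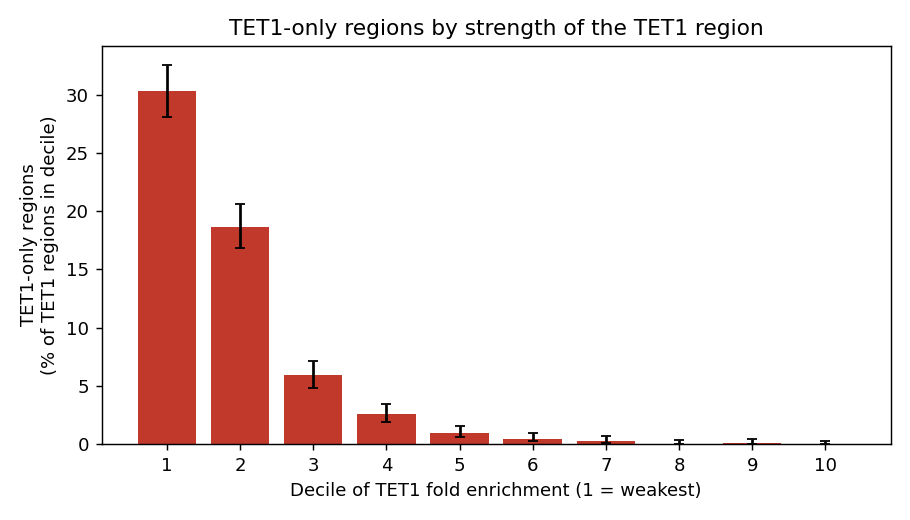
Share of TET1 regions without IAA that were TET1-only (y axis, percent) in each decile of the TET1 list ranked by fold enrichment (x axis, 1 the weakest); bars are shares and whiskers Wilson 95% intervals. The share is 30.3% in the weakest decile, 18.6% in the next and 0 in the strongest.

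**Figure D2:**
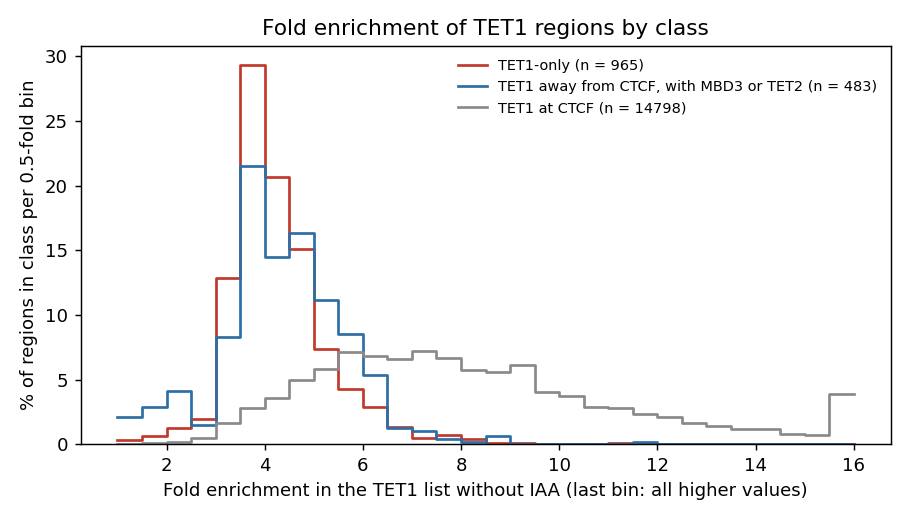
Fold enrichment in the TET1 list without IAA (x axis) for 965 TET1-only regions, 483 TET1 regions away from CTCF with MBD3 or TET2 and 14798 TET1 regions at CTCF, as the percent of each class in 0.5-fold bins (y axis); the last bin holds all higher values. The first 2 classes peak below 5-fold, while the regions at CTCF spread to higher values.

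The fold values of many TET1-only regions were the same number. The 965 regions had just 433 different pairs of fold and −log10 q. The commonest pair, 3.79-fold with a −log10 q of 1.77, was shared by 64 regions. It was followed by 4.27-fold and 4.74-fold with 52 regions each and by 5.21-fold with 32. These 4 values were spaced 0.474 apart, and 237 TET1-only regions, or 24.6%, lay within 0.002 of a whole multiple of that spacing, against 16.8% of the other TET1 regions. The spacing was taken from these TET1-only values, and the 4 pairs alone held 200 regions. The higher TET1-only share is thus partly built in and carries no test.

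A handful of TET1-only regions stood out in strength. Positions are given in the hg19 build. The strongest lay at 70288293 to 70288609 on chromosome X, at 11.97-fold with a −log10 q of 39.6. It ranked 1912 among all TET1 regions and was 27255 bp from the nearest CTCF summit. The next lay at 18693005 to 18693212, also on chromosome X, at 11.4-fold and 1669 bp from a CTCF summit. These 2 were the only TET1-only regions above 10-fold.

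The remaining 8 of the top 10 stood between 7.58- and 9.12-fold. Chromosome 1 had the region 161397821 to 161398072, enriched 9.12-fold, and 84977153 to 84977327, enriched 7.58-fold. Chromosome 19 had 11616611 to 11616797 with 8.54-fold enrichment and 49652995 to 49653319 with 8.25-fold. Chromosome 10 had 75571546 to 75571750 with 8.27-fold enrichment and 104261870 to 104262096 with 8.16-fold. Chromosome 13 had 113951303 to 113951469 with 8.22-fold enrichment, and chromosome 12 had 101603884 to 101604084 with 7.58-fold. Within this group distances to CTCF varied widely, with the region at 49652995 on chromosome 19 just 467 bp from a CTCF summit and the one on chromosome 12 at 101857 bp. The region at the median fold lay at 83671252 to 83671419 on chromosome 16, at 4.16-fold with a −log10 q of 4.39. It was 170188 bp from a CTCF summit, much farther than the median of the class.

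At the bottom of the fold range, strength and significance parted. The 40 TET1-only regions under 3-fold made up 4.15% (3.06% to 5.60%) of the class, and 9 of them still had a −log10 q of 10 or more. On chromosomes 1 to 22 and X, the lowest, 27736245 to 27736469 on chromosome 19, had 1.30-fold enrichment. The region 18512847 to 18513113 on chromosome 18 had 1.44-fold enrichment. Chromosome 10 had a region of 1.71-fold, 42534546 to 42534774, with a −log10 q of 20.9. On chromosome 17, the region starting at 22258216 and ending at 22258372 had 1.84-fold enrichment, and its neighbour from 22259718 to 22259862 had 1.88-fold. As background, these positions are close to centromeres, where repeated sequence makes read placement uncertain. Of all 40, 22 (55.0%) had another TET1 region within 10 kb, against 27.9% of the whole class. Some of the 40 lay outside chromosomes 1 to 22 and X.

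TET1-only regions were narrow. Their median width was 178 bp (quartiles 159 and 215). TET1 regions at CTCF had a median of 199 bp and those away from CTCF with MBD3 or TET2 a median of 198 bp. A wider region has more bases to share with another list, so width is tied to the rule. More than 1 row had been joined in 9 of the 965, and 59 (6.11%) were wider than 300 bp. The widest was 608 bp, at 27273559 to 27274166 on chromosome 2 and 6.10-fold. The next were 547 bp at 72510288 to 72510834 on chromosome 17 (3.44-fold), 464 bp at 124169472 to 124169935 on chromosome 8 (3.84-fold), 444 bp at 103213598 to 103214041 on chromosome 10 (5.98-fold) and 439 bp at 118306708 to 118307146 on chromosome 11 (7.53-fold).

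The distance of TET1-only regions to CTCF varied widely. The median distance from a TET1-only summit to the nearest CTCF summit was 13816 bp (quartiles 3561 and 34923). For the TET1 regions away from CTCF with MBD3 or TET2 it was 18703 bp, and for TET1 regions at CTCF 7 bp. A CTCF summit lay within 10 kb of 406 TET1-only regions (42.1%, 39.0% to 45.2%) and within 1 kb of 113 (11.7%, 9.83% to 13.9%). CTCF was also the nearest of the other 3 lists for 717 of them (74.3%), with median distances of 58443 bp to MBD3 and 327475 bp to TET2. These distances depend on the lengths of the lists, of which the CTCF list is the longest, and no test was made of them.

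Fold was much the same at every distance from CTCF. The 113 TET1-only regions within 1 kb of a CTCF summit had a median fold of 4.11 (quartiles 3.61 and 4.57). The 293 at 1 to 10 kb had 4.08, the 395 at 10 to 50 kb 4.20 and the 163 beyond 50 kb 4.26. These medians differed by less than 1 spacing of the fold values. The TET1-only summit nearest to a CTCF summit was 159 bp away, in the region 155214452 to 155214647 of chromosome 1, enriched 2.39-fold. The next were 187 bp away (chromosome 8, 42698220 to 42698375), 215 bp (chromosome 7, 135195548 to 135195735), 249 bp (chromosome 4, 174113928 to 174114078) and 258 bp (chromosome 19, 1383472 to 1383639).

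The most distant TET1-only region, 61125473 to 61125632 on chromosome 7, was 1.35 Mb from a CTCF summit, and 61200644 to 61200789 on the same chromosome was 1.28 Mb away. As background, this is close to the centromere of that chromosome. The next were 26318432 to 26318590 on chromosome 20 at 476138 bp, 21201644 to 21201793 on chromosome 6 at 293869 bp and 109522116 to 109522274 on chromosome 9 at 267836 bp. In all, 447 TET1-only regions (46.3%, 43.2% to 49.5%) had no summit of any of the 4 lists within 10 kb, another TET1 region included, and 109 (11.3%) had none within 50 kb.

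Few regions sat at the edge of the rule. The closest TET1-only region, at 135195548 on chromosome 7, lay 6 bp from a CTCF region, and 27 of the 965 lay within 100 bp of a region of another list. Just outside the rule, 18 TET1 regions shared fewer than 50 bp in all with the other lists, the least being 6 bp at 64134885 to 64135161 on chromosome 3. The 5 just inside stood between 3.79- and 4.34-fold and the 5 just outside between 3.33- and 5.12-fold.

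The same distance was measured for regions called with MBD3 alone and with TET2 alone. Median distances to a CTCF summit were 13816 bp for TET1-only regions, 21277 bp for 2335 MBD3-only regions and 12919 bp for 503 TET2-only regions. Shares within 1 kb of a CTCF summit were 11.7%, 4.11% and 13.3% in the same order. Each of the 3 classes is free of CTCF overlap by its definition, and these values are descriptions.

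**Figure D3:**
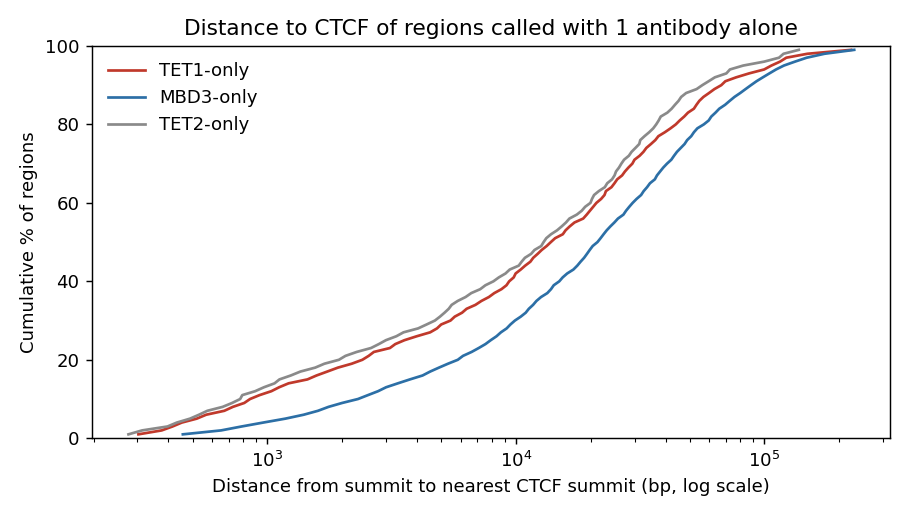
Cumulative percent of regions (y axis) by distance from their summit to the nearest CTCF summit without IAA (x axis, bp, log scale) for TET1-only, MBD3-only and TET2-only regions. The TET1-only curve runs near the TET2-only curve, with medians of 13816 and 12919 bp, and the MBD3-only curve lies at longer distances, with a median of 21277 bp.

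Chromosome was not part of the rule, and the TET1-only share differed widely between chromosomes. Of the other TET1 regions that serve as the comparison, 14798 of 15281 lay at CTCF. The chromosome values below are thus largely a contrast with TET1 regions at CTCF. Chromosome 13 stood far above the rest: 96 of its 465 TET1 regions were TET1-only, or 20.6% (17.2% to 24.6%), against 5.94% of the whole list. It held 10.1% of the TET1-only regions and 2.43% of the other TET1 regions on chromosomes 1 to 22 and X, an odds ratio of 4.49 (95% interval 3.55 to 5.68). Fisher's exact test, two-sided and adjusted over 23 chromosomes, gave p = 1.29e-26. Over 5 strata of fold, the odds ratio was 4.08 (3.04 to 5.48). With strata drawn over the whole list, the weakest held 795 of the 965 TET1-only regions. It ran from 1.25- to 5.04-fold. Fold was thus matched only coarsely, here and in the stratified values below. Without the 3 windows of 5 Mb that held most TET1-only regions, 2 of them on chromosome 13, the unstratified odds ratio was 2.33 (1.67 to 3.23, Fisher's exact adjusted p = 0.000129).

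TET1-only regions on chromosome 13 had a median fold of 4.24, against 4.15 on the other chromosomes, but few were highly significant. A −log10 q of at least 5 was reached by 4 of the 96 (4.17%), against 186 of 857 elsewhere (21.7%). When all lists were limited to −log10 q of at least 5, chromosome 13 held 9 TET1-only regions and its odds ratio was 1.34 (0.683 to 2.62, Fisher's exact adjusted p = 0.718). At −log10 q of at least 10 a single region remained there, with an odds ratio of 0.417. A limit on TET1 fold alone, of at least 5, left 11 regions there and put the odds ratio at 2.82 (interval 1.51 to 5.24, adjusted p = 0.0361 by Fisher's exact test). The higher share on chromosome 13 thus passed the test with the fold limit and not with the q limits, but these limits are unlike. Those on q cut the rows of all 8 lists, with and without IAA, before the class was formed. The fold limit cut TET1 regions without IAA alone. At −log10 q of at least 5 the class held 311 regions, although 197 of the first 965 reached that limit. Regions thus joined the class when weaker rows of the lists were removed. With overlap counted only at 50% of both regions, which lets regions that touch CTCF into the class, the odds ratio was 1.78 (1.47 to 2.15, Fisher's exact adjusted p = 1.74e-07).

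Another 3 chromosomes also carried more TET1-only regions than the rest of the TET1 list did. Chromosome 10 held 8.29% of TET1-only and 5.75% of other TET1 regions (odds ratio 1.48, 1.17 to 1.88, Fisher's exact adjusted p = 0.0102). Chromosome 6 held 7.87% and 5.89%, and chromosome 18 held 2.62% and 1.55%, each with an adjusted p of 0.0477 by the same exact test, just past the threshold. The chromosome 6 excess was local in part. A single window, from 25 to 30 Mb, held 28 of its 75 TET1-only regions but 82 of its 968 TET1 regions. The odds ratio of chromosome 6 without that window was not computed. Chromosomes 19, 20, 22 and 11 carried fewer. Chromosome 19, known as the most gene-dense, held 1.68% of TET1-only and 4.71% of other TET1 regions (odds ratio 0.345, 0.209 to 0.569, Fisher's exact adjusted p = 1.38e-05). The odds ratios were 0.306 for chromosome 20, 0.295 for chromosome 22 and 0.625 for chromosome 11. The remaining 15 chromosomes did not pass the threshold.

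**Figure D4:**
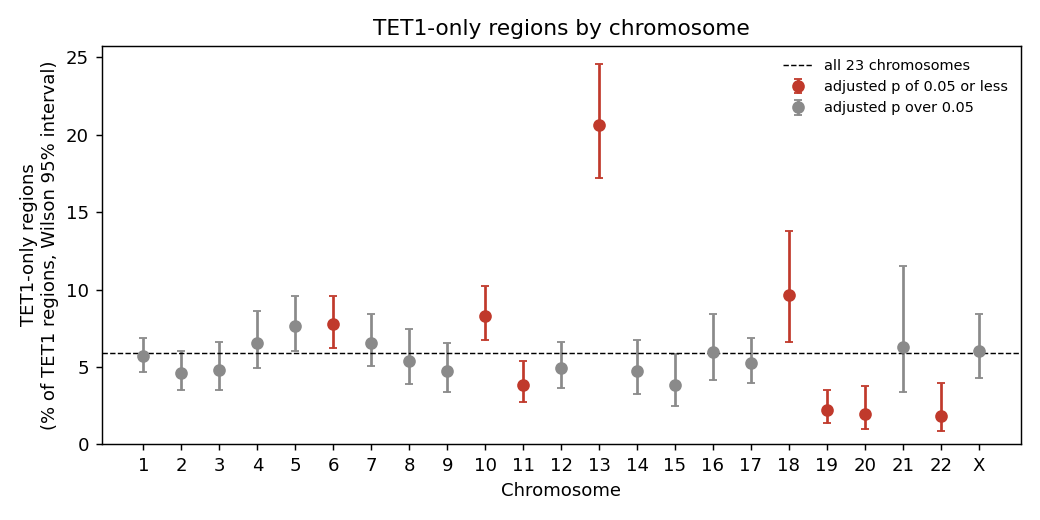
Share of TET1 regions that were TET1-only (y axis, percent, with Wilson 95% intervals) on chromosomes 1 to 22 and X (x axis); red points have an adjusted p of 0.05 or less by Fisher's exact test and the dashed line is the share over all 23 chromosomes. Chromosome 13 stands at 20.6%, while chromosomes 19, 20 and 22 lie near 2%.

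Other classes of region away from CTCF were set beside the TET1-only shares of chromosomes 13 and 6. The other chromosomes past the threshold were not compared with those classes. On chromosome 13 lay 96 of 953 TET1-only regions, against 39 of 462 TET1 regions away from CTCF that carried MBD3 or TET2, or 8.44% (6.24% to 11.3%). That difference was not detectable (odds ratio 1.21, 0.823 to 1.79, Fisher's exact adjusted p = 0.481 over 5 comparisons). Chromosome 6 held 7.87% of TET1-only regions and 8.66% of the same class with MBD3 or TET2, a difference that was not detectable either (odds ratio 0.901, 0.604 to 1.35, Fisher's exact adjusted p = 0.605). On chromosome 13, the 10.1% of TET1-only regions was higher than the 6.78% (5.83% to 7.87%) of regions called with MBD3 alone (odds ratio 1.54, 1.18 to 2.01, Fisher's exact adjusted p = 0.00191). It was also higher than the 3.98% (2.59% to 6.07%) of TET2-only regions (odds ratio 2.70, 1.65 to 4.43, Fisher's exact adjusted p = 5.01e-05). Both values were adjusted over the 2 pairs, which were compared after the first results were seen.

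Along chromosome 13, TET1-only regions were gathered in its middle. Between 60 and 75 Mb lay 64 of its 96 TET1-only regions (66.7%), against 76 of its 369 other TET1 regions (20.6%). This stretch was picked after the values were seen, so the difference has no test. The fullest window of 5 Mb anywhere in the genome ran from 65 to 70 Mb and held 35 TET1-only regions among 63 TET1 regions, or 55.6% (43.3% to 67.2%). The second was the window from 25 to 30 Mb on chromosome 6, with 28 of 82. The third was the window from 60 to 65 Mb on chromosome 13, with 19 of 39. By comparison, 388 windows held any TET1-only region and 160 of these held exactly 1.

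Most TET1-only regions had no other TET1-only region within 50 kb. With summits chained at gaps of 50 kb or less, 792 (82.1%) were alone and 173 (17.9%) fell into 62 stretches, 43 of which were pairs. A share to expect for a class this sparse was not computed. On chromosome 13, 44 of 96 (45.8%) had a TET1-only neighbour within 50 kb. On the other chromosomes of 1 to 22 and X, 122 of 857 (14.2%) did, a difference that was not tested. The stretch of most regions held 19 TET1-only regions between 67407496 and 67783849 on chromosome 13, over 376 kb. As background, this is the part of the chromosome where PCDH9, a protocadherin gene of neuronal cell adhesion, is known to lie.

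Inside the chromosome 13 stretch, TET1-only regions lay among regions of the other lists. The 19 TET1-only regions ranged from 3.27- to 5.21-fold with a highest −log10 q of 4.42, and the 4 other TET1 regions reached 6.47-fold. The same span held 21 MBD3, 8 TET2 and 10 CTCF regions without IAA, and no region of any of the 4 lists with IAA. An MBD3 summit lay within 1 kb of 3 of the 19, the closest being 370 bp from the summit of the region 67517196 to 67517482. The region at 67451672 to 67451876, the strongest of the 19 at 5.21-fold, was 2227 bp from an MBD3 summit and 35812 bp from a CTCF summit.

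**Figure D5:**
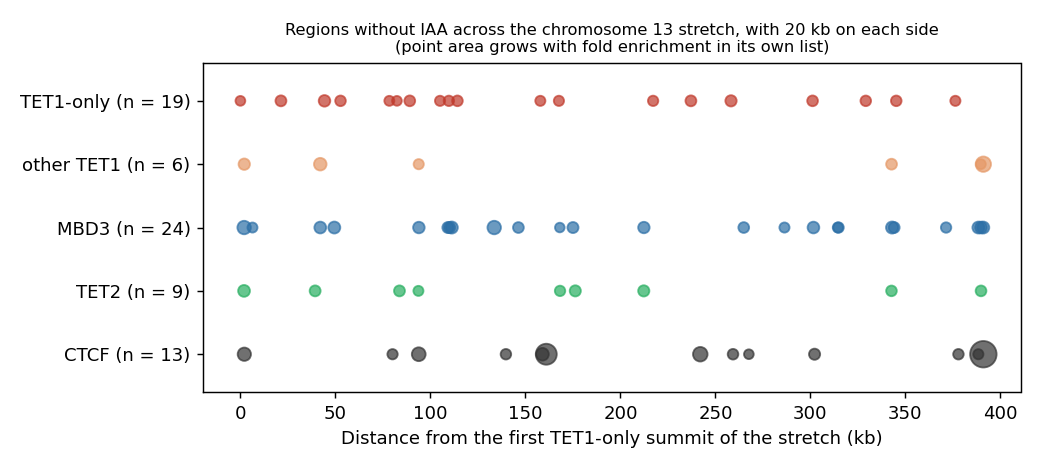
Regions called without IAA across the stretch of 19 TET1-only regions on chromosome 13, by distance in kb from the first TET1-only summit (x axis), with 20 kb added on each side; each row is a list, each point a summit, and point area grows with fold in its own list. The rows of TET1-only and MBD3 regions are spread over the whole span, and CTCF is called at fewer places, 10 in the span against 21 for MBD3.

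The next 2 stretches by number of regions on chromosomes 1 to 22 and X were on chromosome 6. From 27446550 to 27599308 lay 9 TET1-only regions of 2.93- to 6.37-fold among 12 TET1 regions, with 6 CTCF, 2 MBD3 and 2 TET2 regions. From 26553596 to 26572283, over just 18.4 kb, lay 5 of 3.38- to 6.69-fold among 6 TET1 regions, with 1 CTCF and 1 MBD3 region. With IAA no list had a region in either. As background, this part of chromosome 6 is known for its histone genes and its many tRNA genes. No hg19 annotation was used here, so the overlap of TET1-only regions with genes was not tested.

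Shorter stretches lay at 8042763 to 8126343 on chromosome 17, with 4 TET1-only regions of up to 5.88-fold, and at 180633770 to 180649545 on chromosome 5, with 3 regions of 5.88- to 6.74-fold. On chromosome 16, 3 regions lay between 3200584 and 3234344, the strongest at 7.48-fold. These 3 stretches are examples picked after their values were seen, so their strength carries no test. The median fold over each was 5.41, 6.35 and 4.41 in this order, against 4.16 for all TET1-only regions. They were not the 3 strongest. A stretch at 26286668 to 26331820 on chromosome 6 had a median fold of 5.21.

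Spacing to any other TET1 region was also compared. Another TET1 summit lay within 10 kb of 269 TET1-only regions, or 27.9% (25.1% to 30.8%), against 3689 of 15281 other TET1 regions, or 24.1% (23.5% to 24.8%), and 24.4% of the whole list. The odds ratio was 1.21 (1.05 to 1.40, Fisher's exact test, adjusted p = 0.0144 over 3 comparisons). The difference depended on the setting. Over 5 strata of fold the odds ratio was 1.01 (0.863 to 1.18, adjusted p = 0.930), without the 3 stretches of most TET1-only regions on chromosomes 1 to 22 and X it was 1.12 (Fisher's exact adjusted p = 0.202), and at 50 kb it turned to 0.979 (Fisher's exact adjusted p = 0.759). With all lists limited to −log10 q of at least 5 it was 1.46 (1.14 to 1.87, Fisher's exact adjusted p = 0.0111), and at 10 or more it was 2.11 (1.43 to 3.12, Fisher's exact adjusted p = 0.00136). With summits farther than 200 bp from those of the other lists as the rule it was 1.44 (Fisher's exact adjusted p = 5.89e-07). Against the TET1 regions away from CTCF with MBD3 or TET2, of which 31.3% had such a neighbour, the odds ratio was 0.850 (0.670 to 1.08, Fisher's exact adjusted p = 0.329 over 5 comparisons).

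TET1-only regions were scarcer toward the ends of chromosomes than all other TET1 regions were. Within 5 Mb of an end lay 53 of 953 TET1-only regions, or 5.56% (4.28% to 7.20%), against 1441 of 15166 other TET1 regions, or 9.50% (9.05% to 9.98%), and 9.27% of both together. The odds ratio was 0.561 (0.423 to 0.744, Fisher's exact test, adjusted p = 5.69e-05). It was 0.495 (0.368 to 0.666) over 5 strata of fold and 0.584 within 2 Mb of an end. Without the 3 fullest windows of 5 Mb it was 0.613 (0.462 to 0.813, Fisher's exact adjusted p = 0.00121). The comparison was not stratified by chromosome, so the unequal chromosome shares described above enter these values. The difference was not past the threshold among regions with −log10 q of at least 5, at 0.648 (Fisher's exact adjusted p = 0.0940). Nor was it at −log10 q of at least 10, at 0.887 (Fisher's exact adjusted p = 0.874). A TET1 fold of at least 5 gave 0.538 (Fisher's exact adjusted p = 0.249). With overlap counted only at 50% of both regions the odds ratio was 1.01 (Fisher's exact adjusted p = 0.854). Against the TET1 regions away from CTCF with MBD3 or TET2, of which 37 of 462 (8.01%) lay there, the difference was not detectable (odds ratio 0.676, 0.438 to 1.05, Fisher's exact adjusted p = 0.205 over 5 comparisons). Chromosome ends were taken from position 1 and the highest position in any list.

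With IAA, no TET1-only region was still called for TET1. The count was 0 of 965, which allows a share of up to 0.311%, against 36 of 15281 other TET1 regions, or 0.236% (0.170% to 0.326%), and 0.222% of the whole list. So few TET1 regions were kept anywhere that the difference was not detectable (odds ratio 0.216, 0.0133 to 3.53, Fisher's exact adjusted p = 0.273). The TET1 list with IAA had a summit within 10 kb of 6 TET1-only regions (0.622%), against 91 other TET1 regions (0.596%). Among the latter, the TET1 regions away from CTCF with MBD3 or TET2 had a higher share, 24 of 483 (4.97%). These shares were not tested.

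The kept TET1 regions away from CTCF all shared a base with an MBD3 or TET2 region without IAA, and all were weak. Of the 965 TET1-only regions 0 were kept, against 6 of 483 TET1 regions away from CTCF with MBD3 or TET2, or 1.24% (0.571% to 2.68%) (odds ratio 0.0380, 0.00214 to 0.677, Fisher's exact adjusted p = 0.00675 over 5 comparisons made after the first results were seen). Without IAA, TET2 had been called at all 6 and MBD3 at 5. With IAA, an MBD3 region shared a base with all 6, against 8 of the 483 in all. On chromosome 2, the region at 92320344 also shared a base with a CTCF region with IAA. The region at 92316209 did so with a TET2 region with IAA. These places were thus called with more than 1 antibody in both conditions. All 6 had a fold under 3, between 1.36 and 1.84. Of these, 2 lay on the mitochondrial chromosome, 3 lay between 92316209 and 92320659 on chromosome 2 and 1 lay at 42399255 to 42399484 on chromosome 10, and the places on chromosomes 2 and 10 are known to be close to centromeres. The test counted each of the 6 as separate, although those on chromosome 2 lay close together. Without TET1 regions under 3-fold, neither class kept any region, with 0 of 925 TET1-only and 0 of 432 others.

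The other lists with IAA hardly touched TET1 regions, whether TET1-only or other. CTCF and MBD3 regions with IAA lay at 0 of 965, against 53 and 14 of the 15281 other TET1 regions and 0.326% and 0.0862% of the whole list. TET2 regions with IAA lay at 2, or 0.207% (0.0569% to 0.753%), against 0.124% of the other TET1 regions and 0.129% of the whole list. The first was the wide region at 72510288 on chromosome 17, which shared its edge with a TET2 region of 6.06-fold at 72510124 to 72510295. The second was the weak region at 18512847 on chromosome 18, covered by a TET2 region of 2.47-fold at 18512844 to 18513125. Although the TET2 list was longer with IAA than without, a TET2 summit with IAA lay within 10 kb of just 13 TET1-only regions, or 1.35% (0.789% to 2.29%), against 2.93% of the other TET1 regions. This last difference was not tested.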

How the data were processed

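ChIP-seq was made in 10 groups of 3 samples, grouped by title. The authors deposited 8 peak lists, each of 3 pooled samples. Per the submitters' processing notes, the build was hg19 and the tools included MACS2 2.1.2, Bowtie2 2.3.4, bedtools 2.25.0, SAMtools 1.9 and FastQC 0.11.7, with no roles given. Which control MACS2 used was not given in the sources used here. The fold enrichment (a ratio) and −log10 of the q-value are the authors' deposited values, with q at most 0.05, and serve only to describe, rank or filter within 1 list. Summits came from the deposited offsets. Coordinates are hg19, counted from 1.

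A joined region took the largest fold and −log10 q among its rows, and its summit came from its most significant row. Wilson 95% intervals, given for shares, reflect counting error alone. A share of 0 is bounded by 3 counts. Classes were compared with Fisher's exact test, two-sided, Benjamini-Hochberg adjusted, adding 0.5 to tables with a 0, or with Mantel-Haenszel odds ratios (scipy 1.17.1, statsmodels 0.14.6). The code was tested on simulated data. Members, lists and tests were chosen with earlier results of these data known. Named regions were the 10 of highest fold, the 5 of lowest fold, widest, nearest to and farthest from CTCF, the median and every region with a call with IAA, and the 3 stretches of most regions, all on chromosomes 1 to 22 and X. Start sites and motifs were not analysed here, since no hg19 sequence or annotation was used. No sequence is shown for the same reason.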

Additional observations from a re-analysis of the deposited data

How the results depend on the processing

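Of the values under other settings, 44 kept their direction and side of the threshold or stayed within the interval of the first value, against 26 that moved, 8 that lost the threshold and 7 that turned direction. Counts of chromosomes past the threshold had no interval and were taken as kept when close to the first, such as 6 or 9 in place of 8. Settings and comparisons added after the data were seen gave 16, 1, 7 and none in the same order. With an overlap of 50% of both regions, which leaves many regions that touch CTCF in the class, the TET1-only share was 26.7%, the median fold 5.73, width 171 bp, distance to CTCF 12 bp and share with TET2 with IAA 0.0231%. Under that rule the odds ratio was 1.08 for neighbours, 1.01 for chromosome ends and 1.78 for chromosome 13, and 3 chromosomes passed in place of 8. With summits within 200 bp the share was 6.80%, width 182 bp and distance 11122.5 bp. With no other region within 1 kb these were a share of 4.80% and a distance of 19089 bp, and the odds ratio for neighbours was 0.846. At −log10 q of at least 5 in all lists the share was 2.23%, fold 5.62 and width 199 bp. There, 2 chromosomes passed, the odds ratio was 1.34 for chromosome 13 and 0.648 for ends, and for kept regions it was 4.40 against other TET1 regions and 0.156 against those away from CTCF with MBD3 or TET2. At −log10 q of at least 10 the share was 1.09%, fold 6.37, width 230 bp, distance 18515 bp and share with TET2 with IAA 0.0%. There, 0 chromosomes passed and the odds ratios were 0.417 for chromosome 13, 0.887 for ends, and 13.1 and 0.184 for kept regions. Both kept values rest on 1 TET1-only region, which was not part of the class before the limit on q. Which removed rows let it join was not checked. At a TET1 fold of at least 5 the share was 1.32%, fold 5.69, width 193 bp, share with TET2 0.0% and chromosomes passing 2. The odds ratios were 1.15 for neighbours, 0.538 for ends, and 1.65 and 0.804 for kept regions, with 0 TET1-only regions kept. For neighbours, single rows gave 1.17, strata of fold 1.01 and 50 kb 0.979. Added after the data were seen, leaving out the 3 stretches of most TET1-only regions on chromosomes 1 to 22 and X gave 1.12, the 3 fullest windows 1.10 (with a share of 5.50%) and regions under 3-fold 1.17. The last also gave 0.467 for kept regions against those away from CTCF, with no kept region in either class. The cause of these changes was not tested beyond the construction named. Leaving out samples could not be tried because each list pools 3 samples. No paired analysis was possible because the lists carry no value per sample. The planned comparisons with start sites and motifs were not run. The unknown depth limits which weak regions of any list were called.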

Other observations

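TET1-only regions outside chromosomes 1 to 22 and X numbered 12. On an unlocalised contig of chromosome 9, 7 lay in a single stretch of 106 kb, at 1.76- to 3.25-fold, with a highest −log10 q of 24.1. The same stretch held 20 TET1, 8 MBD3, 7 TET2 and 7 CTCF regions without IAA and no region with IAA. Alternative haplotypes of chromosome 6 held 4, at 4.27- to 5.21-fold. The mitochondrial chromosome held 1, at 1.34-fold with a −log10 q of 18.9.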
